A study of Homo sapiens with 11 samples.

Results

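The 39 genes described here encode proteins of homologous recombination and of the repair pathways around it, out of 58735 genes in the deposited tables. They were taken by symbol and grouped by role into 6 damage sensors and checkpoint kinases, 5 BRCA1 and BRCA2 mediators, 7 strand-exchange genes, 9 Fanconi anaemia genes, 5 RecQ helicases, 2 mismatch repair genes and 5 genes of end joining and PARP1. All 39 passed the filter on low counts in every comparison. Homologous recombination copies the sister chromatid to mend a broken chromosome: sensor kinases signal the break, BRCA1 and its partners prepare the ends, BRCA2 loads the recombinase, and helicases such as BLM resolve the joint molecules. The Fanconi anaemia proteins feed crosslinked DNA into the same route, while the Ku proteins, DNA-PK and LIG4 rejoin broken ends without a template. Inherited loss of ATM, BRCA1, BRCA2 or PALB2 predisposes to pancreatic cancer, and recombination-deficient pancreatic tumours can be treated with PARP inhibitors.

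Poly(A) RNA of AsPC-1 and PANC-1, both established human pancreatic cancer cell lines, was sequenced 48 hours after transfection of small interfering RNA (siRNA) against MYEOV, and compared with control libraries. The groups were AsPC-1 MYEOV siRNA (n = 3), AsPC-1 control (n = 2), PANC-1 MYEOV siRNA (n = 3) and PANC-1 control (n = 3), with no other allele or agent named for any of them. The labels call the controls both WT and untreated, whereas the protocol lists a negative-control siRNA, so what the control cells received is not settled and transfection itself cannot be told apart from the siRNA. A pair of MYEOV siRNAs is listed, without stating which library received which. Whether each library came from its own culture is not stated, and p-values therefore reflect spread between libraries that may be technical.

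Libraries held 12113093 to 15066456 counts. MYEOV measured 42.9, 50.7 and 48.1 CPM (counts relative to library totals, with TMM scaling computed over all 11 libraries) in AsPC-1 siRNA libraries, against 131 and 129.7 CPM in AsPC-1 controls. It measured 37.7, 35.8 and 39.8 CPM in PANC-1 siRNA libraries and 75.1, 68.6 and 64.4 CPM in PANC-1 controls. The target was therefore at 35.9% of control in AsPC-1 and at 54.4% in PANC-1, so the knockdown differed in depth between the lines (edgeR, difference of log2 changes -0.59 ± 0.10 SE, adjusted p = 0.00153). Of 6 ductal epithelial markers none was at 0 in any group, and their summed level was 18455 to 18967 CPM in AsPC-1 siRNA libraries, 18078 to 18272 CPM in AsPC-1 controls, 1931 to 1964 CPM in PANC-1 siRNA libraries and 2265 to 2534 CPM in PANC-1 controls. Most of it was KRT8, KRT18 and KRT19. KRT7 was at 1.14 to 3.56 CPM over all libraries, and EPCAM at 4.82 to 7.93 CPM in PANC-1. The 5 endothelial markers summed to under 1 CPM in every library, and the 6 leukocyte markers to 30.7 to 33.0 CPM in AsPC-1, nearly all of it LYZ, and to 0.947 to 1.73 CPM in PANC-1. The 6 fibroblast markers summed to 106 to 109 CPM in AsPC-1 siRNA libraries and 296 to 310.2 CPM in AsPC-1 controls, nearly all of it LUM, and to 46.9 to 48.6 CPM in PANC-1 siRNA libraries and 33.7 to 40.4 CPM in PANC-1 controls.

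The first question was how the repair genes responded to MYEOV siRNA in each line. In AsPC-1, 5 of the 39 rose and 10 fell, while 24 were not called at an adjusted p under 0.05. Across all 14304 genes tested in that line, 16.6% were called higher and 16.3% lower, so the members rose in a share of 12.8% and fell in a share of 25.6%. Their median log2 fold change was -0.07, against -0.00 over all tested genes. In PANC-1, 6 of the 39 fell, a share of 15.4%, and 33 were not called, where 4.16% of 14929 tested genes were called higher and 4.92% lower. Libraries of the same group differed more from each other in PANC-1. The replicate spread that edgeR estimated was 6.08% there, against 2.77% for the AsPC-1 comparison. The numbers of calls alone therefore do not show which line had the broader response. No member was called higher in PANC-1 by edgeR or by DESeq2. None rose at an unadjusted edgeR p under 0.05, whereas 13 fell at that level. The share of all tested genes at that unadjusted level is not given here, so these counts have no background. The median log2 fold change of the members in PANC-1 was -0.13, against -0.00 over all tested genes, and 32 of the 39 estimates were below 0. PANC-1 control 2, the library furthest from its group, was well above controls 1 and 3 for some members. It held 96.1 CPM of NBN, against 75.5 and 78.5 CPM, and 32.7 CPM of BARD1, against 25.8 and 23.3 CPM. For FANCE and FANCD2 another control was highest. How far this library lowers the median is not given here. Most changes were small: apart from RECQL, LIG4 and FANCE, every member's estimate lay from -0.40 to 0.31 on the log2 scale in both lines.

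**Figure D1:**
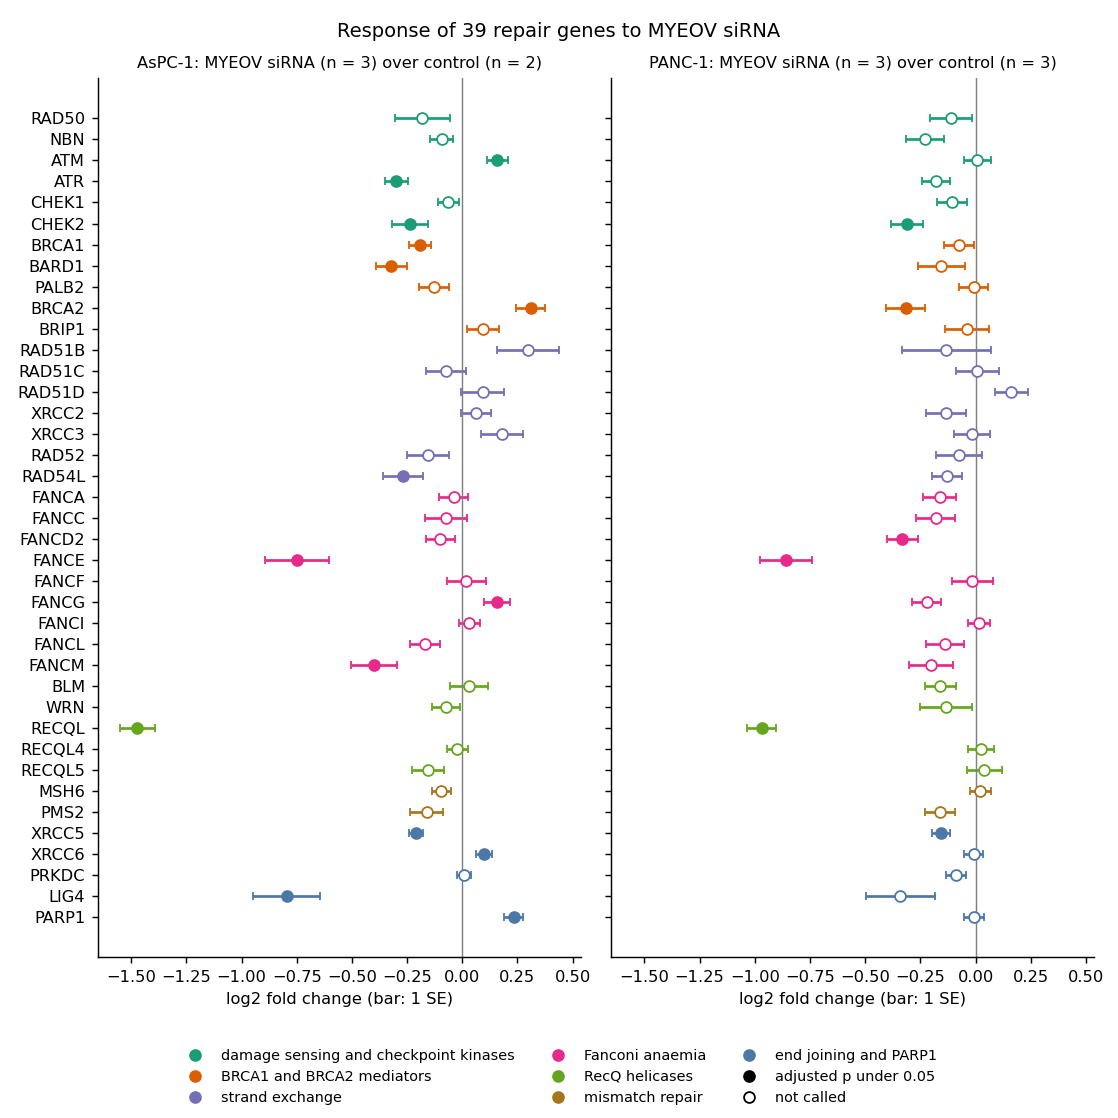
Log2 fold change of each of the 39 repair genes, MYEOV siRNA over control, in AsPC-1 (left panel) and PANC-1 (right panel), with bars of 1 standard error. Filled points passed an adjusted p under 0.05, and colours give the role. RECQL at -1.47 and -0.97 stands furthest to the left in both panels. It is followed by LIG4 at -0.80 and FANCE at -0.75 in AsPC-1, and by FANCE at -0.86 in PANC-1.

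Among the genes tested in both lines, 3.97% of 12893 were called lower in each, and 4 of the 39 repair genes were: RECQL, FANCE, CHEK2 and XRCC5. The 2 comparisons share no library. RECQL and FANCE held in every alternative setting tried in either line, whereas the call of CHEK2 depended on the setting in both lines and that of XRCC5 in PANC-1. BRCA2 was called in opposite directions in the 2 lines.

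RECQL, a RecQ-family DNA helicase that acts at stalled replication forks, fell furthest of all members in both lines. The gene lies on the minus strand of chromosome 12 (GRCh38, chr12:21468911-21501669). It measured 18.3, 16.4 and 19.2 CPM in AsPC-1 siRNA libraries, against 47.4 and 51.4 CPM in AsPC-1 controls. In PANC-1 it measured 33.7, 36.9 and 35.0 CPM in siRNA libraries and 65.9, 71.2 and 69.4 CPM in controls. Every siRNA library lay far below every control of its line, and the groups did not overlap. The log2 fold change was -1.47 ± 0.08 in AsPC-1 (SE, edgeR adjusted p = 2.08e-13), leaving 36.0% of the control level, and -0.97 ± 0.06 in PANC-1 (adjusted p = 8.84e-07), leaving 51.1%. RECQL shares 1566 exon bases with PYROXD1 on the opposite strand, and without a stated strand setting reads there cannot be told apart. PYROXD1 averaged 12.1 CPM, with a log2 fold change of -0.41 in AsPC-1 (adjusted p = 0.00394) and -0.13 in PANC-1 (adjusted p = 0.643).

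The other RecQ helicases did not pass the test in either line. BLM, which with its partners dissolves joint molecules, had estimates of 0.03 ± 0.09 in AsPC-1 and -0.16 ± 0.07 in PANC-1. WRN, the helicase and exonuclease lost in Werner syndrome, had estimates of -0.07 ± 0.06 and -0.13 ± 0.12. RECQL4, mutated in Rothmund-Thomson syndrome, had -0.02 ± 0.05 and 0.03 ± 0.06, and RECQL5 had -0.15 ± 0.07 and 0.04 ± 0.08. Within this family the fall was thus measured for 1 gene of 5. RMI2, a subunit of the complex that BLM works in, was not among the 39 but fell in both lines, by 0.88 ± 0.11 in AsPC-1 (edgeR adjusted p = 4.94e-07) and by 0.58 ± 0.10 in PANC-1 (adjusted p = 0.00187) on the log2 scale.

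FANCE, the subunit that connects the Fanconi core complex to FANCD2, fell in both lines to a similar degree. It is a low-abundance gene on chromosome 6 (chr6:35452356-35467103, plus strand), with 60 to 67 counts in the AsPC-1 siRNA libraries and 100 and 117 in the AsPC-1 controls. It measured 5.02, 5.43 and 5.54 CPM in AsPC-1 siRNA libraries, against 8.88 and 8.86 CPM in AsPC-1 controls. In PANC-1 it measured 8.22, 8.06 and 8.004 CPM in siRNA libraries and 16.4, 15.1 and 12.6 CPM in controls. The siRNA libraries of each line were tightly grouped and all lower than its controls. The log2 fold change was -0.75 ± 0.15 in AsPC-1 (SE, edgeR adjusted p = 0.000255) and -0.86 ± 0.12 in PANC-1 (adjusted p = 0.000404), leaving 59.5% and 55.2% of the control level. The difference between these 2 changes was 0.12 ± 0.18 (adjusted p = 0.823).

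Of the remaining Fanconi genes, FANCM fell and FANCG rose in AsPC-1, FANCD2 fell in PANC-1, and FANCA, FANCC, FANCF, FANCI and FANCL were not called in either line. FANCM, a translocase that anchors the core complex on DNA, measured 12.47, 12.003 and 11.99 CPM in AsPC-1 siRNA libraries and 16.1 and 15.7 CPM in AsPC-1 controls. All 3 siRNA libraries were lower, with a log2 fold change of -0.40 ± 0.10 (edgeR adjusted p = 0.00392). FANCD2, the protein that the core complex monoubiquitinates, measured 37.4, 35.7 and 32.7 CPM in PANC-1 siRNA libraries and 44.4, 43.3 and 45.7 CPM in PANC-1 controls. These groups did not overlap, and the log2 fold change was -0.33 ± 0.07 (adjusted p = 0.00994). In AsPC-1 the FANCD2 libraries overlapped, with an estimate of -0.10 ± 0.07. UBE2T, the ubiquitin-conjugating enzyme that modifies FANCD2, was not among the 39 and fell by 0.29 ± 0.06 in AsPC-1 (adjusted p = 0.000683) and by 0.37 ± 0.07 in PANC-1 (adjusted p = 0.00321).

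FANCG, another core complex subunit, measured 51.9, 51.7 and 52.4 CPM in AsPC-1 siRNA libraries and 46.0 and 46.4 CPM in AsPC-1 controls, a rise of 0.16 ± 0.06 on the log2 scale (edgeR adjusted p = 0.0461). In PANC-1 it measured 52.1, 54.6 and 48.3 CPM in siRNA libraries and 57.5, 63.2 and 60.0 CPM in controls, with an estimate of -0.22 ± 0.07 that missed the threshold (adjusted p = 0.0551). All siRNA libraries thus lay above the controls in AsPC-1 and below them in PANC-1. The PANC-1 fall was called by edgeR without the low-count filter, with the 5 CPM filter and in 1 fit over all groups (adjusted p = 0.0443, 0.0442 and 0.0169). The rise in AsPC-1 was lost in 9 of 12 alternatives, among them each of the 5 fits that left out a library (adjusted p 0.0591 to 0.231).

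LIG4, the ligase that seals ends in non-homologous end joining, fell in AsPC-1. It measured 4.52, 5.92 and 5.96 CPM in AsPC-1 siRNA libraries, against 9.33 and 9.48 CPM in AsPC-1 controls. Counts behind these values were 54 to 72 in siRNA libraries and 107 and 123 in controls. The groups did not overlap, the log2 fold change was -0.80 ± 0.15 (edgeR adjusted p = 0.000189), and 57.6% of the control level was left. In PANC-1, LIG4 measured 10.4, 7.49 and 9.30 CPM in siRNA libraries and 9.71, 14.4 and 10.6 CPM in controls. Those groups overlapped, the estimate of -0.34 ± 0.16 was not called (adjusted p = 0.206), and the 2 lines' changes differed by -0.44 ± 0.24 (adjusted p = 0.366).

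The Ku subunits, which form a ring on broken ends, moved in opposite directions in AsPC-1. XRCC5 (Ku80) measured 518, 526 and 529 CPM in AsPC-1 siRNA libraries and 615 and 585 CPM in AsPC-1 controls, a fall of 0.21 ± 0.03 (edgeR adjusted p = 1.24e-05). XRCC6 (Ku70) measured 441, 442 and 474 CPM in AsPC-1 siRNA libraries and 423 and 413 CPM in AsPC-1 controls, a rise of 0.10 ± 0.04 (adjusted p = 0.0363) that was lost in 6 of 12 alternatives, among them those without control 1, control 2 or siRNA library 3 (adjusted p 0.123 to 0.207). For both genes the siRNA libraries were all on the same side of the controls. In PANC-1, XRCC5 measured 496, 513 and 496 CPM in siRNA libraries and 559.7, 574 and 543 CPM in controls, again with no overlap. The fall of 0.16 ± 0.04 in PANC-1 (adjusted p = 0.0340) did not survive the removal of any of the 6 libraries in turn (adjusted p 0.0502 to 0.178). XRCC6 in PANC-1 had an estimate of -0.01 ± 0.04. PRKDC, the catalytic subunit of DNA-PK, had 0.01 ± 0.03 in AsPC-1 and -0.09 ± 0.04 in PANC-1 and was called in neither. APTX, an end-processing enzyme outside the 39, fell by 0.44 ± 0.07 in AsPC-1 (adjusted p = 5.37e-05) and by 0.26 ± 0.07 in PANC-1 (adjusted p = 0.0296).

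PARP1, which senses strand breaks and is the target of PARP inhibitors, rose in AsPC-1. It measured 253, 225 and 244 CPM in AsPC-1 siRNA libraries and 202 and 204 CPM in AsPC-1 controls, without overlap. The rise was 0.23 ± 0.04 on the log2 scale (edgeR adjusted p = 0.000157), and it was called in all 12 alternatives. In PANC-1 it measured 292, 302 and 290.3 CPM in siRNA libraries and 296, 290.2 and 302 CPM in controls. Those groups lay on top of each other, with an estimate of -0.01 ± 0.04.

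BRCA2, the mediator that loads the recombinase on single-stranded DNA, was higher with MYEOV siRNA in AsPC-1 and lower in PANC-1. It measured 50.0, 49.7 and 54.9 CPM in AsPC-1 siRNA libraries, against 40.5 and 41.9 CPM in AsPC-1 controls. It measured 25.3, 22.8 and 24.5 CPM in PANC-1 siRNA libraries, against 29.5, 33.8 and 27.4 CPM in PANC-1 controls. In AsPC-1 every siRNA library was above every control, and in PANC-1 every siRNA library was below every control. The log2 fold change was 0.31 ± 0.07 in AsPC-1 (SE, edgeR adjusted p = 0.000608), called in all 12 alternatives, and -0.32 ± 0.09 in PANC-1 (adjusted p = 0.0405). The call in PANC-1 was lost when control 1, control 2 or any siRNA library was left out (adjusted p 0.0770 to 0.136), and held without control 3.

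The partners of BRCA1 and BRCA2 did not follow that pattern. BARD1, the obligate partner of BRCA1 in its ubiquitin ligase, measured 35.5, 32.6 and 31.6 CPM in AsPC-1 siRNA libraries and 42.0 and 40.2 CPM in AsPC-1 controls. The groups did not overlap and the fall was 0.32 ± 0.07 (edgeR adjusted p = 0.000830). BRCA1 itself measured 82.8, 85.5 and 90.2 CPM in AsPC-1 siRNA libraries and 96.6 and 98.3 CPM in AsPC-1 controls, a fall of 0.19 ± 0.05 (adjusted p = 0.00370). This call was lost without AsPC-1 control 2 (adjusted p = 0.0648). In PANC-1 neither passed, with estimates of -0.15 ± 0.11 for BARD1 and -0.07 ± 0.07 for BRCA1. PALB2, the bridge between BRCA1 and BRCA2, had -0.13 ± 0.07 in AsPC-1 and -0.01 ± 0.07 in PANC-1. BRIP1, a helicase that binds BRCA1, had 0.09 ± 0.07 and -0.04 ± 0.10, and both genes were called in neither line. BRCC3, a deubiquitinase of the BRCA1-A complex outside the 39, fell by 0.39 ± 0.06 in AsPC-1 (adjusted p = 1.83e-05).

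**Figure D2:**
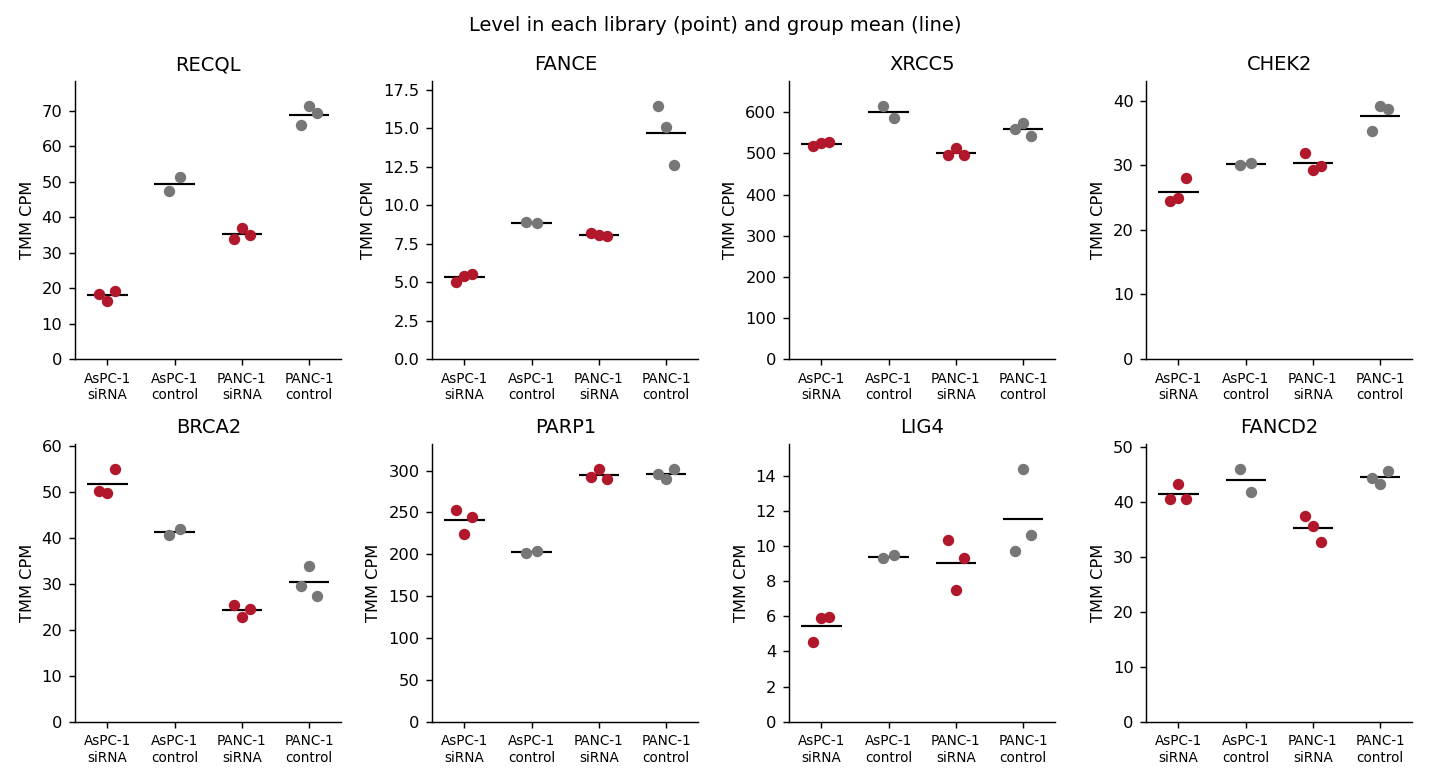
Level of 8 repair genes in each library, in TMM CPM from 0 on a linear axis, with siRNA libraries in red, control libraries in grey and group means as lines. RECQL, FANCE, XRCC5 and CHEK2 have all siRNA libraries below the controls in both lines, BRCA2 is above in AsPC-1 and below in PANC-1, PARP1 is apart in AsPC-1, and LIG4 and FANCD2 are each apart in 1 line.

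The sensor kinases split. ATR, which responds to single-stranded DNA at stalled forks, measured 59.5, 60.9 and 59.7 CPM in AsPC-1 siRNA libraries and 73.6 and 72.6 CPM in AsPC-1 controls. The siRNA libraries lay in a narrow band below the controls, a fall of 0.30 ± 0.05 (edgeR adjusted p = 7.12e-05). In PANC-1, ATR had an estimate of -0.18 ± 0.06 that missed the threshold (adjusted p = 0.0958), and it was called lower in 1 fit over all groups (adjusted p = 0.0391). ATM, which responds to chromosome breaks, measured 136, 127 and 124 CPM in AsPC-1 siRNA libraries and 113 and 117 CPM in AsPC-1 controls. That rise of 0.16 ± 0.05 (adjusted p = 0.0109) was lost without AsPC-1 control 1 (adjusted p = 0.183) and without siRNA library 1 (adjusted p = 0.0552). In PANC-1 the ATM estimate was 0.01 ± 0.06. TOPBP1, the activator of ATR and not one of the 39, fell by 0.48 ± 0.05 in AsPC-1 (adjusted p = 7.96e-09) and by 0.26 ± 0.05 in PANC-1 (adjusted p = 0.00759).

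CHEK2, the kinase downstream of ATM, measured 24.5, 25.0 and 28.04 CPM in AsPC-1 siRNA libraries and 30.0 and 30.4 CPM in AsPC-1 controls. In PANC-1 it measured 32.0, 29.2 and 30.0 CPM in siRNA libraries and 35.3, 39.1 and 38.7 CPM in controls. All siRNA libraries were below the controls of their line. The fall was 0.24 ± 0.08 in AsPC-1 (edgeR adjusted p = 0.0254) and 0.31 ± 0.07 in PANC-1 (adjusted p = 0.0185). The AsPC-1 call was lost without control 1, control 2, siRNA library 1 or siRNA library 2 (adjusted p 0.0858 to 0.137), and the PANC-1 call without control 3, siRNA library 2 or siRNA library 3 (adjusted p 0.0659 to 0.0742). CHEK1, the kinase downstream of ATR, had -0.06 ± 0.05 in AsPC-1 and -0.11 ± 0.07 in PANC-1 and was called in neither. NBN and RAD50, which tether broken ends, were also not called, with estimates of -0.09 ± 0.05 and -0.18 ± 0.13 in AsPC-1 and of -0.23 ± 0.09 and -0.11 ± 0.10 in PANC-1.

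Of the 7 strand-exchange genes, RAD54L was the only call, and only in AsPC-1. RAD54L, a translocase that drives strand invasion, measured 19.7, 23.3 and 23.9 CPM in AsPC-1 siRNA libraries and 26.6 and 26.5 CPM in AsPC-1 controls. The siRNA libraries were all lower, by 0.27 ± 0.09 on the log2 scale (edgeR adjusted p = 0.0225). The call was lost without control 1, control 2 or siRNA library 1 (adjusted p 0.112 to 0.124). RAD51B, RAD51C, RAD51D, XRCC2 and XRCC3, paralogs that assist the recombinase filament, had estimates from -0.07 to 0.30 in AsPC-1 and from -0.13 to 0.16 in PANC-1. RAD52, an annealing protein, had -0.16 ± 0.10 and -0.07 ± 0.10. The mismatch repair genes MSH6, which recognises mispairs, and PMS2, which nicks the strand, had -0.09 ± 0.04 and -0.16 ± 0.07 in AsPC-1 and 0.02 ± 0.05 and -0.16 ± 0.07 in PANC-1, all uncalled. MSH6 shares 1785 exon bases with FBXO11 on the opposite strand, which fell in both lines (log2 fold change -0.65 and -0.54).

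Counted by whether libraries overlapped, rather than by the test, 16 members had every AsPC-1 siRNA library below every AsPC-1 control and 9 had every one above, where 25.4% and 28.9% of all tested genes did. In PANC-1, 13 members lay wholly below and 1 wholly above, where 14.7% and 13.7% of all tested genes did. The 13 of 39 wholly below in PANC-1 include genes whose adjusted p missed the threshold, such as FANCG and PMS2.

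The other repair pathways are given as counts, to be read against the 16.3% of all tested genes called lower in AsPC-1 and the 4.92% in PANC-1. Of 22 other recombination genes, 9 fell in AsPC-1, a share of 40.9% (median log2 fold change -0.04), and 5 fell in PANC-1, a share of 22.7% (median -0.13). Of 14 base excision and single-strand break repair genes, 6 fell in AsPC-1, a share of 42.9% (median -0.18), and 8 fell in PANC-1, a share of 57.1% (median -0.27). TDG, APEX1 and NEIL3, enzymes that remove or cut at damaged bases, fell in AsPC-1 by 0.72, 0.69 and 0.68 on the log2 scale (edgeR adjusted p 8.84e-10, 7.13e-12 and 1.79e-05) and in PANC-1 by 0.56, 0.65 and 0.84 (adjusted p 7.40e-05, 5.05e-06 and 5.15e-05). Of 19 other checkpoint and mediator genes, 3 fell in each line, a share of 15.8%, near the background in AsPC-1. RIF1, which protects ends from resection, rose in AsPC-1 by 0.65 ± 0.04 (adjusted p = 8.50e-12). SHLD2, a shieldin subunit that acts with RIF1, fell by 1.05 ± 0.07 in AsPC-1 (adjusted p = 9.88e-12) and by 0.68 ± 0.06 in PANC-1 (adjusted p = 7.14e-06). Of 14 other Fanconi and crosslink genes, 3 rose and 2 fell in AsPC-1, and 1 rose and 1 fell in PANC-1. REV3L, the catalytic subunit of polymerase zeta, rose in both lines (0.42 ± 0.07 and 0.26 ± 0.05), while its partner MAD2L2 fell in AsPC-1 by 0.55 ± 0.11. Of 8 other end joining genes tested, 3 fell in AsPC-1 and 1 did in PANC-1. Lists of 11 nucleotide excision and 3 other mismatch repair genes held 1 call in AsPC-1, a fall of DDB2, which recognises ultraviolet damage, by 0.35 ± 0.08.

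Many repair genes are transcribed in dividing cells, so proliferation markers were set beside them. The 11 markers summed to 2573 to 2657 CPM in AsPC-1 siRNA libraries and 2426 to 2433 CPM in AsPC-1 controls, and to 2183 to 2248 CPM in PANC-1 siRNA libraries and 2287 to 2399.7 CPM in PANC-1 controls. The sums lay apart without overlap, upwards in AsPC-1 and downwards in PANC-1. In AsPC-1 the direction rests on MKI67, at 1117, 1121 and 1104 CPM in siRNA libraries and 898 and 890.1 CPM in controls. Without it the other 10 markers summed to 1456, 1462 and 1552 CPM in AsPC-1 siRNA libraries and 1534 and 1536 CPM in AsPC-1 controls, which overlap, and still lay apart in PANC-1, at 1576 to 1582 CPM in siRNA libraries and 1668 to 1744 CPM in controls. In AsPC-1 MKI67 and TYMS rose and MCM6, CCNB1 and CDK1 fell, and in PANC-1 MCM6 and CCNB1 fell. Their part in the repair gene results was not tested. The 39 repair genes summed to 3389 to 3433 CPM in AsPC-1 siRNA libraries and 3474 to 3489 CPM in AsPC-1 controls, and to 3708 to 3814 CPM in PANC-1 siRNA libraries and 3890.4 to 4141 CPM in PANC-1 controls. In these bulk libraries, fewer cells that express a gene and less RNA of it per cell cannot be told apart.

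The second question was whether a short word in the 3' untranslated region (UTR), already noticed across all genes of these data, was present in the repair genes. The word is CTCATGT, searched on the transcript strand in the longest 3' UTR of each gene's principal GENCODE 29 transcript. Of the 39 genes, 4 carry it, which is 10.3%, against 11.4% of all genes with an annotated 3' UTR tested in AsPC-1 and 11.5% in PANC-1. These are RECQL with a pair of copies, and FANCE, XRCC5 and RAD51C with 1 copy each. The sites are shown since 3 of these 4 genes are among the 4 called lower in both lines. Each is printed 5′ to 3′ on the transcript strand with 10 bases on each side, and the capitals mark the word.
RECQL, first copy: caagaaaaatCTCATGTtttaagaaag
RECQL, second copy: caagaaaaatCTCATGTtttaagaaag
FANCE: agctcttgtgCTCATGTatattatgac
XRCC5: tgattagtgtCTCATGTggaaccatgg
RAD51C: gaaagctgatCTCATGTggccagtctg
The RECQL windows lie in its last exon at chr12:21469657-21469683 and chr12:21469345-21469371 (GRCh38, minus strand), with the word at bases 521 and 833 of a 3' UTR of 1283 bases. They are letter for letter the same, within an identical stretch of 46 bases. The FANCE window lies at chr6:35467010-35467036 (plus strand), with the word at base 675 of 758. The XRCC5 window lies at chr2:216205556-216205582 (plus strand), with the word at base 364 of 1101, and the RAD51C window at chr17:58734477-58734503 (plus strand), with the word at base 265 of 1389.

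RECQL, FANCE and XRCC5 fell in both lines as given above, and RAD51C did not, with estimates of -0.07 ± 0.09 in AsPC-1 and 0.01 ± 0.10 in PANC-1. RAD51C measured 20.0, 18.3 and 19.4 CPM in AsPC-1 siRNA libraries and 20.7 and 19.2 CPM in AsPC-1 controls, and 15.7, 14.6 and 13.2 CPM in PANC-1 siRNA libraries and 14.0, 14.1 and 15.2 CPM in PANC-1 controls, overlapping in both lines. Of the 35 members without the word, 7 were called lower in AsPC-1 and 3 in PANC-1. Those 35 had a median log2 fold change of -0.07 with siRNA in AsPC-1 and of -0.13 in PANC-1. The 4 carriers had medians of -0.48 and -0.51. Over all tested genes with an annotated 3' UTR, 38.4% of carriers and 15.1% of the rest were called lower in AsPC-1, and 20.9% and 3.50% in PANC-1. The word was noticed in these same data, so the carrier shares, here and below, are not independent of its choice. The length of the 3' UTR was not taken into account. CHEK2, the remaining member lower in both lines, and LIG4 carry no copy. BARD1 carries the word only in a transcript other than the principal one. Among the protein-coding transcripts searched, FANCE and XRCC5 carry it in every one, RECQL and RAD51C only in some. The last 6 bases of the word, TCATGT, occur in 13 members, the 4 carriers included. Of these, 30.8% were called lower in each line, against 23.1% of the rest in AsPC-1 and 7.69% in PANC-1. Over all tested genes with a 3' UTR the shares were 26.2% and 13.1% in AsPC-1, and 10.9% and 2.48% in PANC-1. The presence of the word is a description, and its part in any change was not tested here.

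The third question was whether the response differed between the lines, tested as the siRNA effect in AsPC-1 minus that in PANC-1 in 1 fit over all 4 groups. Of the 39 genes, BRCA2, FANCG and PARP1 had a higher and RECQL a lower effect in AsPC-1, so that 3 and 1 members were called, where 2.28% of 16680 tested genes were called higher and 2.07% lower. The difference was 0.64 ± 0.12 on the log2 scale for BRCA2 (edgeR adjusted p = 0.00234) and 0.39 ± 0.09 for FANCG (adjusted p = 0.0159). For PARP1 it was 0.25 ± 0.07 (adjusted p = 0.0334), and for RECQL it was -0.49 ± 0.11 (adjusted p = 0.00894). The RECQL difference was lost without AsPC-1 control 2 (adjusted p = 0.0825), and that of FANCG without AsPC-1 control 1 or 2 (adjusted p = 0.0997 and 0.0752). The difference of PARP1 was lost in 11 of 17 alternatives, among them 8 of the 11 that left out a library (adjusted p 0.0657 to 0.164). RECQL fell further in AsPC-1, the line in which MYEOV itself was reduced further, and whether the depth of knockdown sets the size of the fall was not tested.

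The last question was how the repair genes differ between the lines without MYEOV siRNA, AsPC-1 control against PANC-1 control. This comparison uses the same control libraries as the siRNA comparisons. AsPC-1 controls were higher for 14 members and lower for 15, with 10 not called, in shares of 35.9% and 38.5%, where 36.1% of 16182 tested genes were called higher and 40.3% lower. The counts of members were thus near the background. The median absolute log2 difference of the members was 0.39, against 0.76 over all tested genes. By library, 16 members lay wholly above and 16 wholly below, where 38.7% and 45.0% of all tested genes did.

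RecQ helicases held the extremes in both directions. WRN measured 48.0 and 51.0 CPM in AsPC-1 controls, against 11.5, 13.7 and 11.8 CPM in PANC-1 controls. The lines were far apart, and WRN was 4.08-fold higher in AsPC-1 (log2 2.03 ± 0.10, edgeR adjusted p = 4.22e-11). The siRNA libraries lay beside the controls of their line, with 47.4, 45.7 and 49.2 CPM in AsPC-1 and 9.94, 11.2 and 12.7 CPM in PANC-1. BLM went the other way, with 25.1 and 26.1 CPM in AsPC-1 controls and 52.1, 55.6 and 48.8 CPM in PANC-1 controls (log2 -1.002 ± 0.09, adjusted p = 7.32e-08). RECQL was lower in AsPC-1 (-0.46 ± 0.08), while RECQL4 and RECQL5 were higher (0.28 ± 0.07 and 0.42 ± 0.09). RECQL5 shares 1520 exon bases with SMIM5 on the opposite strand, which had a log2 fold change of 4.59.

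BRCA1 and BRCA2 mediators were higher in AsPC-1 for 4 of 5 genes. BRCA1 measured 96.6 and 98.3 CPM in AsPC-1 controls and 49.3, 54.6 and 47.2 CPM in PANC-1 controls, a 1.97-fold difference without overlap (log2 0.98 ± 0.08, edgeR adjusted p = 1.32e-08). BARD1 measured 42.0 and 40.2 CPM in AsPC-1 controls and 25.8, 32.7 and 23.3 CPM in PANC-1 controls (0.62 ± 0.12, adjusted p = 0.000211). BRCA2 (0.47 ± 0.10) and PALB2 (0.38 ± 0.08) were also higher, and BRIP1 was not called (0.02 ± 0.12). Of the strand-exchange genes, RAD51B measured 8.35 and 7.44 CPM in AsPC-1 controls and 5.48, 3.67 and 4.23 CPM in PANC-1 controls (0.84 ± 0.18, adjusted p = 0.000642). RAD52 measured 18.4 and 19.6 CPM in AsPC-1 controls and 12.1, 14.1 and 12.6 CPM in PANC-1 controls (0.58 ± 0.11, adjusted p = 0.000271). For both genes all AsPC-1 controls exceeded all PANC-1 controls. RAD51C was higher by 0.49 ± 0.11, while RAD51D (-0.55 ± 0.10) and RAD54L (-0.30 ± 0.09) were lower and XRCC2 and XRCC3 were not called. XRCC3 shares 5756 exon bases with KLC1 on the opposite strand. RAD54L likewise shares 806 with LRRC41, which had a log2 fold change of -1.04.

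Of the 4 end joining members, 2 were lower in AsPC-1 than in PANC-1, as were PARP1 and both mismatch repair genes. PRKDC (-0.48 ± 0.05), XRCC6 (-0.36 ± 0.05) and PARP1 (-0.52 ± 0.06) were lower in AsPC-1 controls, XRCC5 was higher by 0.13 ± 0.05 in a call lost in 8 of 12 alternatives, among them 4 of the 5 that left out a library (adjusted p 0.0666 to 0.334), and LIG4 was not called. MSH6 (-0.54 ± 0.06) and PMS2 (-0.41 ± 0.08) were lower in AsPC-1. PMS2 has several annotated pseudogenes that reads can be shared with, which limits its value. CHEK2, FANCD2, XRCC6 and PARP1 also have annotated pseudogenes of the same name. The same limit holds for their values, here and in the siRNA comparisons. Among Fanconi genes, FANCE measured 8.88 and 8.86 CPM in AsPC-1 controls and 16.4, 15.1 and 12.6 CPM in PANC-1 controls (-0.70 ± 0.14, edgeR adjusted p = 0.000340). FANCI, the partner of FANCD2, measured 98.8 and 101 CPM in AsPC-1 controls and 150.5, 157 and 147 CPM in PANC-1 controls (-0.58 ± 0.06, adjusted p = 7.81e-07). Both genes were lower in each AsPC-1 control than in any PANC-1 control. FANCC and FANCG were lower too, FANCA and FANCL, the ubiquitin ligase subunit, were higher, and FANCD2, FANCF and FANCM were not called. On the opposite strand, FANCA shares 2302 exon bases with ZNF276, FANCL 452 with VRK2 and FANCI 458 with POLG. Log2 fold changes of these overlapping genes were 0.14, 0.50 and -0.68. Of the kinases ATM (-0.38 ± 0.07) and CHEK2 (-0.30 ± 0.09) were lower, CHEK1 was higher by 0.19 ± 0.08, and ATR, NBN and RAD50 were not called. The CHEK2 call was lost without AsPC-1 control 1 (adjusted p = 0.0591), that of RECQL4 without AsPC-1 control 2 (adjusted p = 0.0522), and that of CHEK1 in 8 of 12 alternatives, among them 4 of the 5 that left out a library (adjusted p 0.119 to 0.183).

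**Figure D3:**
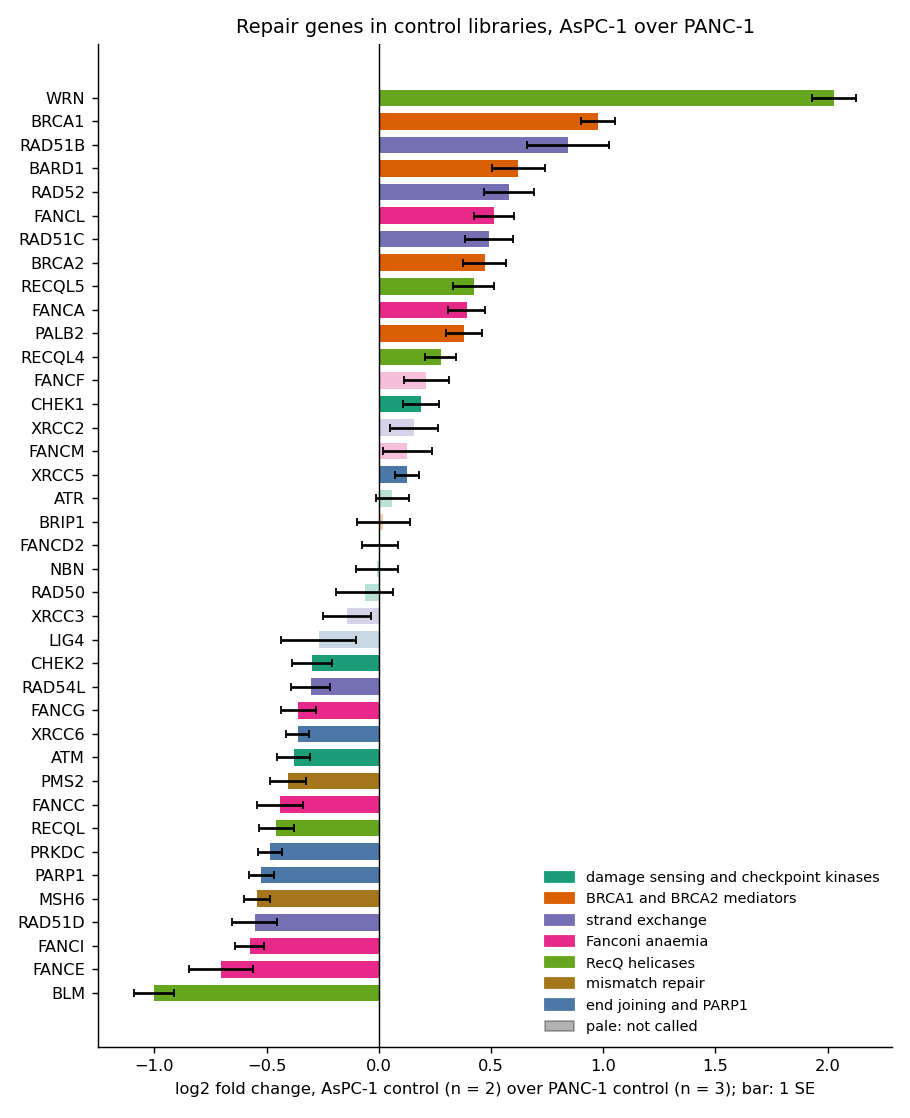
Log2 fold change of the 39 repair genes, AsPC-1 control over PANC-1 control, as horizontal bars with 1 standard error, coloured by role and pale where not called. WRN at 2.03 and BRCA1 at 0.98 are at the top and BLM at -1.002 at the bottom, and 14 members are called higher and 15 lower.

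Repair genes outside the 39 were compared in the same way. Their counts are to be read against the 36.1% of all tested genes called higher and the 40.3% called lower. Of 14 other Fanconi and crosslink genes, 10 were lower in AsPC-1 controls and 2 higher (median log2 fold change -0.79), led by MAD2L2 (-1.57 ± 0.10), FAAP100 (-1.43 ± 0.08) and REV3L (-1.37 ± 0.07). Of 19 checkpoint and mediator genes, 9 were lower and 1 higher (median -0.14), among the lower TP53BP1, which steers breaks to end joining, at -1.58 ± 0.07. Of 8 other end joining genes tested, 4 were higher and 1 lower (median 0.26), led by XRCC4, the partner of LIG4, at 1.13 ± 0.10 and the nuclease gene DCLRE1C at 1.12 ± 0.11. The 22 other recombination genes split into 8 higher and 8 lower, from SFR1 at 2.02 ± 0.11 to MUS81 at -1.47 ± 0.08. These shares, 36.4% each, were near the background. Of 14 base excision and single-strand break repair genes, 4 were higher and 3 lower (median 0.03). Of 11 nucleotide excision genes, 4 were higher and 1 lower (median 0.12), led by ERCC5 at 2.27 ± 0.26, a gene under 10 CPM. Over all genes tested in this comparison the median was -0.06.

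Set per kb of exon, the 39 genes spanned a wide range of levels in each line. Exon length here is the union of all annotated exons of a gene, such as 23972 bases for ATM. It can exceed the length of the main transcript, which lowers the value per kb and the rank. In AsPC-1 controls, XRCC6 was highest at 127 ± 2.27 CPM per kb and XRCC5 next at 109.8 ± 3.83 (SD, n = 2), followed by PRKDC at 44.4 ± 0.315 and PARP1 at 28.3 ± 0.185. In PANC-1 controls the same order held, with XRCC6 at 166 ± 3.91, XRCC5 at 102 ± 2.80, PRKDC at 63.1 ± 2.73 and PARP1 at 41.3 ± 0.801 CPM per kb (SD, n = 3). These 4 stood apart from one another without overlap in each line. The lowest were RAD51B at 1.06 ± 0.0857 CPM per kb in AsPC-1 controls and 0.596 ± 0.124 in PANC-1 controls, and RAD50 at 1.26 ± 0.173 and 1.33 ± 0.0789. The RAD50 level is uncertain, since 7784 of its 9771 exon bases are shared with AC116366.3 on the same strand. Between these ends, the median member stood at 6.77 CPM per kb in AsPC-1 controls and 5.99 in PANC-1 controls. Of 38 pairs of neighbours in the order, 13 overlapped in AsPC-1 controls and 25 in PANC-1 controls, so the order in the middle is not resolved. WRN ranked 17 of 39 in AsPC-1 controls and 36 in PANC-1 controls, while BLM ranked 29 and 17.

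**Figure D4:**
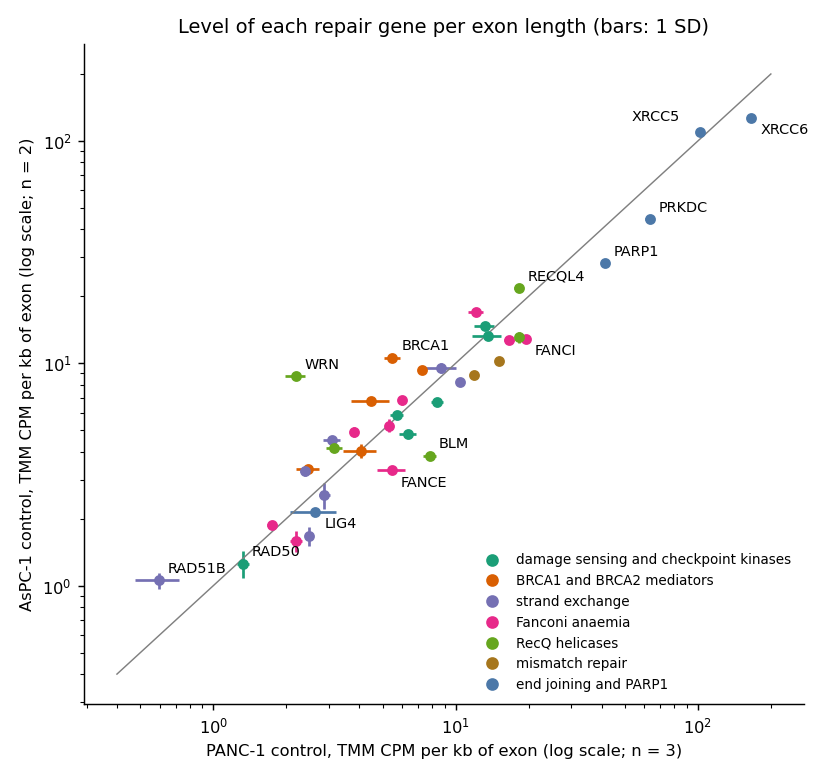
Level of each of the 39 repair genes in TMM CPM per kb of exon, AsPC-1 controls on the vertical and PANC-1 controls on the horizontal axis, both on log scales, with bars of 1 SD and a line of equal level. XRCC6, XRCC5, PRKDC and PARP1 are at the upper right, WRN is far above the line, and RAD51B and RAD50 are at the lower left.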

How the data were processed

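The tools HISAT2 and HTSeq and the build hg19 are listed, without versions, per the submitters' processing notes. The authors deposited whole-number counts per gene, 1 table per library, with no normalization, and no source used here gives the strand setting. All 58735 identifiers matched GENCODE release 29, a GRCh38 annotation, which gave names, exon lengths, 3' UTRs and positions, so no position comes from the deposited tables. From those counts, each comparison was fitted with edgeR 4.0.16 (limma 3.58.1, R 4.3.3; filterByExpr, TMM, glmQLFit, glmQLFTest; two-sided). Benjamini-Hochberg adjustment ran over all tested genes, with a threshold of 0.05. The SE is the absolute log2 fold change over the square root of F. CPM used TMM factors over all 11 libraries. Total counts of 12113093 to 15066456 per library set the precision, and genes under 10 CPM, such as FANCE and LIG4, rest on the fewest reads.

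Every pair of replicates differed beyond sampling noise, so no library was counted as a duplicate. PANC-1 control 2 stood furthest from its group. Its chi-square per degree of freedom was 5.47 against control 1 and 4.47 against control 3, with 2.57 between controls 1 and 3. Within the other groups this value was 1.62 to 3.42. The fitting code was tested on simulated data. Values in every library are given for up to 8 called members per comparison with the largest change, plus further members chosen after their values were seen. From each other repair list, up to 3 called genes per comparison with the largest change could be named. Members and lists, and the 3' UTR word, were chosen with earlier results of these data known. The alternatives tried were DESeq2 1.42.0, scaling by RLE or by the upper quartile, keeping every gene or filtering at 5 CPM, a replicate block, a single fit of all groups, and leaving out each library. Figures used matplotlib 3.10.9 in Python 3.11.15.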

Additional observations from a re-analysis of the deposited data

Results flagged for a closer look

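The siRNA effect differed between the lines for 4 repair genes in the test of the difference itself, edgeR's quasi-likelihood test in 1 fit over all 4 groups. BRCA2 had the largest difference, 0.64 on the log2 scale: its 3 siRNA libraries were above both controls in AsPC-1 and below all 3 in PANC-1. RECQL fell in both lines, further in AsPC-1, by a difference of -0.49. FANCG differed by 0.39, with siRNA libraries above the controls in AsPC-1 and below them in PANC-1. PARP1 differed by 0.25, higher with siRNA in AsPC-1 and overlapping in PANC-1. None of the 4 differences was called in all 17 alternatives.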

How the results depend on the processing

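No member changed direction in a called value under any alternative. Of the calls, 9 of 15 in AsPC-1 held in all 12 alternatives, 2 of 6 in PANC-1 (RECQL and FANCE) in all 13, 25 of 29 between the controls in all 12, and 0 of 4 differences between lines in all 17. Members higher in AsPC-1 numbered 5, but 3 with DESeq2, 3 with the replicate block, 2 in 1 fit over all groups and 2 to 5 with a library left out, and members lower 7 to 10. Members lower in PANC-1 numbered 6, but 2 with the replicate block and 3 to 4 with a library left out. Other settings added calls there. NBN and FANCG were lower without the low-count filter, FANCG with the 5 CPM filter, and ATR and FANCG in 1 fit over all groups. Differences between lines numbered 3 higher and 1 lower, but 0 higher with the replicate block, and 1 to 3 higher and 0 to 1 lower with a library left out. Replicate numbers did not pair the libraries: same-numbered deviations correlated at -0.03 and -0.01 in AsPC-1 and at -0.02, -0.39 and -0.10 in PANC-1. Differently numbered PANC-1 libraries correlated at up to 0.36, for siRNA library 2 with control 1 and for siRNA library 3 with control 2. The lowest such value was -0.36, for siRNA library 3 with control 1. Variation shared in this way between PANC-1 siRNA and control libraries was not modelled. Under the replicate block the calls of FANCD2, CHEK2, BRCA2 and XRCC5 were lost in PANC-1, as were the BRCA2, FANCG and PARP1 differences (adjusted p = 0.0568, 0.0976 and 0.190). Over all genes, calls in PANC-1 numbered 1356, 628 with the block and 538 to 1712 with a library left out, and differences between lines 727, 241 and 305 to 1056. Where AsPC-1 had 1 control left, that library was assumed to vary like the others. The cause of these changes was not tested.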
